A study of Mus musculus with 6 samples.

Results

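The 10 genes described here encode channels that set the resting membrane potential: the two-pore potassium channel genes Kcnk1, Kcnk2, Kcnk3 and Kcnk10, the sodium leak channel gene Nalcn, and the inward rectifier genes Kcnj3, Kcnj6, Kcnj9, Kcnj10 and Kcnj16. They were chosen by name as members of these families and are 10 of the 32531 named genes in the count files. All came from mouse thalamus, in adult animals of the Cbln1-EGFP/Rpl10a line NIDA030 that received no treatment. In this line a ribosomal protein fused to a green fluorescent protein is made under the control of Cbln1, so that ribosomes of the cells expressing the transgene can be pulled down with their RNA (translating ribosome affinity purification). The 2 groups were 3 immunopurified libraries (IP) and 3 Input libraries, every one of them from animals carrying the transgene, and the single comparison asked which RNAs were more or less abundant in IP than in Input. The labels do not say whether replicates came from separate animals or pools, and the p-values given cover the variation among these libraries alone.

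Leak channels are open at rest. Two-pore potassium channels carry an outward current that holds a neuron near the potassium equilibrium potential, and NALCN carries a small inward sodium current that opposes it. In thalamic relay neurons the balance of these currents, which transmitters and second messengers adjust, helps to set whether the cell fires in bursts or in tonic trains. Among inward rectifiers, the Kir3 channels (also called GIRK) are opened by G-protein beta-gamma subunits below receptors such as GABA-B, whereas the channels made with Kcnj10 and Kcnj16 are known from glial cells, where they help to clear extracellular potassium.

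Library totals ran from 23929070 to 57385828 assigned counts. Levels are counts-per-million of the TMM-scaled library (CPM). Here and below, values of a group are listed from replicate 1 to replicate 3. Cbln1, the gene that drives the transgene, was counted 1759, 4323 and 4559 times in Input, against 68011, 65532 and 63597 times in IP. Markers of glutamatergic thalamic neurons were present in Input, with a summed level of 3857 to 4443 CPM over 12 genes, although the thalamic regulator Gbx2 was near the floor (0.627 to 0.880 CPM). Their summed level was higher in IP, at 4966 to 5651 CPM. Gene by gene they went both ways: 5 were called higher, 4 lower and 3 were not called (median log2 fold change 0.07). All 12 astrocyte and all 10 oligodendrocyte markers were lower in IP, with median log2 fold changes of -3.06 and -3.46, and 11 of 12 pan-neuronal markers were higher (median 0.92). IP replicate 1 differed more from the other IP libraries than those did from each other (chi-square per degree of freedom 138 and 95.4, against 42.9). Xist, which is transcribed from the inactive X chromosome of females, was counted 165, 311 and 0 times in Input, against 87, 34 and 0 times in IP, while the Y-linked gene Ddx3y was counted at least 717 times in every library. Libraries of replicates 1 and 2 thus held counts of both genes, with Xist low. Whether these came from more than 1 animal was not tested. Libraries of replicate 3 held no Xist counts, and differed in this from those of replicates 1 and 2. Whether replicates 1 and 2 came from separate animals is not given. The choroid plexus gene Ttr was counted 71, 24784 and 28317 times in Input, against 0, 1861 and 1490 times in IP, and was thus low in both libraries of replicate 1. Replicate 1 was therefore not a technical repeat of the other replicates.

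Of 16898 genes that passed a filter on low counts, 47.5% were called, 23.3% as higher and 24.3% as lower in IP, at an adjusted p of 0.05 (edgeR's quasi-likelihood test, Benjamini-Hochberg adjustment over all genes tested). All 10 channel genes passed the filter, with at least 58 counts in every library. The same test called 6 of them, 4 as higher and 2 as lower, and left 4 uncalled. Kcnk2, Kcnk3, Nalcn and Kcnj3 rose, and Kcnj10 and Kcnj16 fell. IP values lay wholly above Input values for 4 of the 10 genes and wholly below for 3, where the shares over all genes tested were 27.9% and 33.7% (61.6% for either direction). The median log2 fold change of the 10 was 0.12, beside -0.07 over all genes tested. These counts are near the background, so the set as a whole did not stand apart in how often its members changed. What differed was the direction and size among members, as the plot of levels by library shows.

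**Figure D1:**
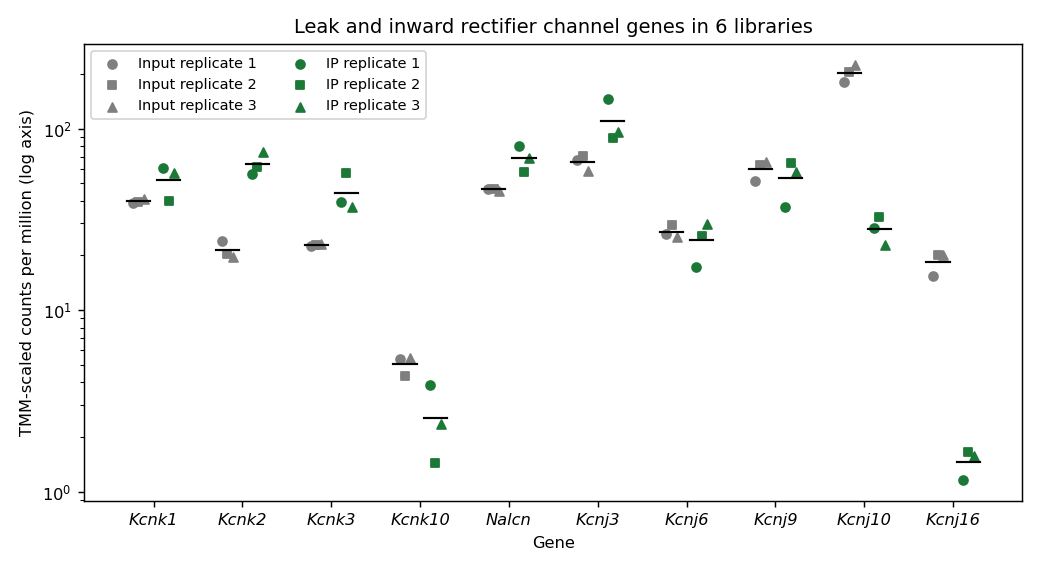
TMM-scaled CPM (log axis) of the 10 channel genes in each library. Grey symbols are Input, green symbols IP, the symbol shape gives the replicate number and the black bar the mean of 3 libraries. Kcnk2 lies at 55.9 to 74.5 CPM in IP and 19.7 to 23.9 CPM in Input, and Kcnj10 at 22.8 to 32.7 CPM in IP and 181 to 224 CPM in Input.

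The GENCODE annotation of mm10 lists all 10 genes as protein-coding. Kcnk2 is on chromosome 1 (189207930 to 189402273, minus strand), Kcnk1 on chromosome 8 (125995170 to 126030685, plus), Kcnk3 on chromosome 5 (30588170 to 30625271, plus), Kcnk10 on chromosome 12 (98429437 to 98578310, minus) and Nalcn on chromosome 14 (123276634 to 123627144, minus). Kcnj3 is on chromosome 2 (55435970 to 55598145, plus), Kcnj6 on chromosome 16 (94748636 to 94997701, minus), Kcnj16 on chromosome 11 (110968033 to 111027968, plus), and Kcnj9 and Kcnj10 are neighbours on chromosome 1 (172320501 to 172329318, minus, and 172341210 to 172374085, plus). Without a known strand setting of the counting, a gene and its antisense partner could not be told apart. The largest antisense overlap was at Kcnj3, where 31.1% of the exonic bases (1621) are shared with the opposite-strand non-coding gene Gm26794, followed by Kcnk2 with 12.2% (A430027H14Rik) and Kcnk1 with 8.01% (Gm45875). These 3 non-coding genes had no line of their own in the count files.

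Kcnk2, which had the largest increase among the members, and Kcnj10 and Kcnj16, which had the largest decreases, are shown with the 250 bases before their annotated start, the window in which most core promoter motifs lie. RefSeq sequences on GRCm38.p6 were found for 9 of the 10 members. Where a gene had several starts the outermost was taken (Kcnk2 and Kcnj16, 4 starts each). Sequences are on the gene's strand, 5′ to 3′, and capitals mark matches on either strand to any of 5 short motifs. These were the promoter element known as the TATA box, spelled TATAAA, the element named after its letters CCAAT, the GC box, spelled GGGCGG, the cyclic AMP response element, spelled TGACGTCA, and the core of the motif bound by TCF/LEF factors, spelled CTTTGAT. No matches overlap in the windows shown.
Kcnk2, chr1:189402274-189402523, minus strand: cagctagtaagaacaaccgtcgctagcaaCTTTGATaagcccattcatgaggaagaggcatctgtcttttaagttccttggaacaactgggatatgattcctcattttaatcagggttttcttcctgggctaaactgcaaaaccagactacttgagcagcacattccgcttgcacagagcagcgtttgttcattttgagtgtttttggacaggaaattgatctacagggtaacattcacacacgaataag
Kcnj10, chr1:172340960-172341209, plus strand: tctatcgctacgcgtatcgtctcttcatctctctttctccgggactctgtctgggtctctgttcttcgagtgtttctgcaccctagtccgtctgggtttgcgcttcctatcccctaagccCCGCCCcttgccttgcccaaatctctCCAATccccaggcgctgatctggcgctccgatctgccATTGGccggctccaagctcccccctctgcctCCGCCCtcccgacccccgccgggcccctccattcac
Kcnj16, chr11:110967783-110968032, plus strand: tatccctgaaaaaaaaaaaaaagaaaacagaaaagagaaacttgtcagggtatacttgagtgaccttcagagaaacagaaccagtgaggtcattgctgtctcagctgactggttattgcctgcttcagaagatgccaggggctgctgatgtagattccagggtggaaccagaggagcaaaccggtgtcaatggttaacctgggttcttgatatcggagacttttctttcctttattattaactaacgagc

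The 3 windows have little in common. That of Kcnj10 is 62.0% G and C with 17 CpG dinucleotides, 2 CCAAT and 2 GC box matches. Kcnj16, which moved in the same direction, has 42.8% G and C, 3 CpG and no match to any of the 5 motifs. The Kcnk2 window has 42.4% G and C, 5 CpG and 1 TCF/LEF match. Over 32851 RefSeq windows of the same length the median was 52.4% G and C with 6 CpG, and 33.8% held the CCAAT element, 32.7% the GC box, 12.4% the TATA box, 3.21% the TCF/LEF core and 1.55% the cyclic AMP response element. A match describes the letters only and shows no binding.

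Among the two-pore channels, Kcnk2 rose furthest. It encodes TREK-1, a channel opened by membrane stretch, heat and polyunsaturated lipids and closed by phosphorylation below receptors that signal through Gs and Gq. Its Input levels were 23.9, 20.3 and 19.7 CPM, and its IP levels 55.9, 61.8 and 74.5 CPM. The lowest IP library was well above the highest Input library. Kcnk2 was 3.01-fold higher in IP (log2 fold change 1.59, SE 0.15, adjusted p = 3.61e-05). With the sign kept, its log2 fold change stood at the 97.8 percentile of all genes tested. It was also above that of each of the 12 pan-neuronal markers.

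Kcnk10, the close relative that encodes TREK-2, went the other way. It had 5.41, 4.33 and 5.47 CPM in Input and 3.86, 1.44 and 2.35 CPM in IP. The IP values were all below the Input values, but they were spread widely, and the difference did not pass (log2 fold change -0.99, SE 0.42, adjusted p = 0.0775). Without IP replicate 1, the highest of the IP values, it was called lower (-1.41, adjusted p = 0.0110), and it was also called lower with DESeq2, limma-voom, a stricter filter and the other library scalings (adjusted p between 0.0307 and 0.0463). The ratio of Kcnk2 to Kcnk10 per kilobase of exon was 7.86, 8.32 and 6.37 in Input and 25.7, 76.2 and 56.2 in IP. The ratio was thus higher in every IP library, by 6.42-fold on average (exact two-sided permutation p = 0.1, the smallest that 3 against 3 libraries allow, and 0.12 after adjustment over the 6 ratios computed).

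Kcnk3 encodes TASK-1, an acid-sensitive leak channel that is closed below Gq-coupled receptors such as muscarinic ones. It was at 22.6, 22.9 and 23.3 CPM in Input, where the libraries hardly differed, and at 39.3, 56.9 and 37.0 CPM in IP. The IP libraries were all higher, with replicate 2 well above the other two. The increase was 1.94-fold (log2 fold change 0.95, SE 0.17, adjusted p = 0.00178).

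Kcnk1 encodes TWIK-1, a weakly conducting channel found in many cell types, astrocytes among them. Its levels were 38.7, 39.5 and 41.1 CPM in Input and 60.4, 40.1 and 56.6 CPM in IP. IP replicate 2 fell within the Input range while the other IP libraries lay above it, and the gene was not called (log2 fold change 0.40, SE 0.16, adjusted p = 0.0608; 2 SE either side runs from 0.09 to 0.71). It was called higher without IP replicate 2 (0.56, adjusted p = 0.00237), without both libraries of replicate 2 (0.56, adjusted p = 0.0161) and with no filter (0.42, adjusted p = 0.0411). Relative to Kcnk3, Kcnk1 was less abundant in each IP library than in any Input library: per kilobase the ratio was 3.04, 3.07 and 3.14 in Input and 2.73, 1.25 and 2.72 in IP (exact two-sided permutation p = 0.1, adjusted 0.12).

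Other two-pore genes were few and low. Of 10 further members of the family, 5 passed the filter, 0 were higher and 1, Kcnk9, was lower. The shares over all genes tested were 23.3% higher and 24.3% lower, and so few genes do not stand apart from them. Kcnk9 encodes TASK-3, the acid-sensitive partner of TASK-1, and went from 11.1, 9.76 and 9.41 CPM in Input to 2.001, 3.92 and 1.98 CPM in IP (log2 fold change -1.94, SE 0.32, adjusted p = 0.00118). The 2 acid-sensitive channel genes therefore moved in opposite directions. Kcnk13, the most abundant uncalled gene by the naming rule, had 3.19 ± 1.11 CPM in Input and 3.69 ± 0.457 CPM in IP (SD, n = 3 each). Kcnk5 was counted 8, 6 and 26 times in Input and 0 times in every IP library, Kcnk7 and Kcnk18 had at most 2 counts in any library, and Kcnk15 and Kcnk16 had 0 in all.

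Of 13 kinases and partners known to act on two-pore channels, 9 rose and 1 fell, beside 23.3% and 24.3% of all genes tested. Their median log2 fold change of 0.52 was below that of the pan-neuronal markers (0.92). The list was led by the adaptor S100a10, which binds TASK-1 (1.43, SE 0.24, adjusted p = 0.00112), and Prkce, a protein kinase C isoform (1.05, SE 0.08, adjusted p = 1.44e-05). Akap5, which anchors protein kinase A, fell (-1.07, SE 0.22, adjusted p = 0.00364). Ywhab, a 14-3-3 protein, rose (0.47, SE 0.07), and the phospholipase gene Plcb4 was not called (438 ± 13.6 CPM in IP, 400.2 ± 14.4 in Input).

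Nalcn, the pore of the sodium leak channel, stood at 46.3, 46.7 and 45.5 CPM in Input and at 80.6, 57.3 and 69.1 CPM in IP. All IP libraries were above the narrow Input range. The increase was 1.49-fold (log2 fold change 0.58, SE 0.13, adjusted p = 0.00584). It lost its call without both libraries of replicate 3 (0.58, adjusted p = 0.0650), and the log2 fold change was 0.34 when libraries were scaled by their totals alone (adjusted p = 0.0458).

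The auxiliary subunits of NALCN did not move as one. Fam155a, which helps the channel to reach the membrane, rose from 116 ± 2.37 to 166 ± 13.6 CPM (SD, n = 3 each; log2 fold change 0.52, SE 0.09, adjusted p = 0.00131). Unc79, a large cytoplasmic scaffold of the channel, fell from 97.3 ± 1.22 to 61.2 ± 7.43 CPM (-0.67, SE 0.11, adjusted p = 0.00100). Unc80, its partner scaffold, was called higher by a small margin (0.20, SE 0.07, adjusted p = 0.0390), a call that 10 of 16 alternative fits did not give, the one with the replicate number as a block among them (0.20, adjusted p = 0.0604). With library totals the sign of Unc80 was negative (-0.03). Fam155b, the other list member, was not matched in the count files.

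**Figure D2:**
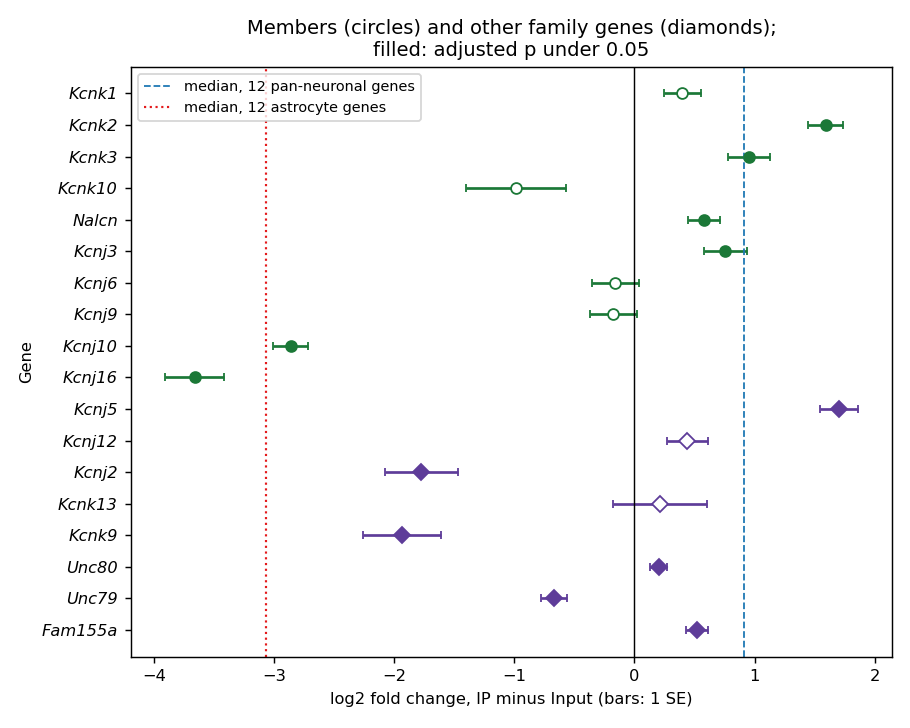
Log2 fold change (IP minus Input) with 1 SE for the 10 channel genes (circles) and other genes of their families and complexes (diamonds), filled where the adjusted p was under 0.05. Dashed and dotted lines mark the medians of 12 pan-neuronal (0.92) and 12 astrocyte genes (-3.06). Kcnk2 and Kcnj5 lie well to the right of the pan-neuronal line and Kcnk3 (0.95) just to the right of it. Kcnj10 and Kcnj16 lie on either side of the astrocyte line.

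The Kir3 genes split. Kcnj3 encodes GIRK1, which cannot form channels alone and joins other Kir3 subunits. It had 66.9, 70.1 and 58.2 CPM in Input and 145, 88.6 and 95.9 CPM in IP. Every IP library was above every Input library, with IP replicate 1 far above the rest. The increase was 1.69-fold (log2 fold change 0.75, SE 0.18, adjusted p = 0.00699). Without IP replicate 1 it was 0.51 on the log2 scale and was still called (adjusted p = 0.00336).

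Kcnj6 (GIRK2), a subunit able to form channels by itself, was not called. Its levels were 26.2, 29.5 and 25.3 CPM in Input and 17.2, 25.6 and 29.7 CPM in IP, so the groups overlapped. The log2 fold change was -0.16 (SE 0.20, adjusted p = 0.541), with 2 SE running from -0.56 to 0.24. Kcnj9 (GIRK3), which joins the other subunits and carries a signal for sorting to lysosomes, was at 51.3, 63.0 and 65.4 CPM in Input and 37.0, 64.9 and 57.5 CPM in IP. It overlapped likewise (log2 fold change -0.18, SE 0.20, adjusted p = 0.493, 2 SE from -0.57 to 0.22). For both genes IP replicate 1 was the lowest of all 6 libraries, whereas for Kcnj3 it was the highest.

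Kcnj5 (GIRK4), the fourth Kir3 gene and best known from heart muscle, had the largest increase of any gene in these channel families. It went from 13.01, 13.98 and 16.3 CPM in Input to 40.8, 45.7 and 54.7 CPM in IP, a 3.25-fold rise (log2 fold change 1.70, SE 0.16, adjusted p = 3.91e-05). Summed over the 4 Kir3 genes, the level per kilobase of exon was 33.1 ± 1.999 CPM in Input and 46.7 ± 1.24 CPM in IP (SD, n = 3 each). Of that sum, Kcnj5 made up 8.95, 8.53 and 10.5% in Input and 18.4, 21.6 and 24.7% in IP. Kcnj9 made up 38.6, 42.0 and 45.9% in Input and 18.2, 33.5 and 28.3% in IP, and Kcnj6 11.1, 11.0 and 9.97% against 4.77, 7.42 and 8.21%. Shares of Kcnj5 were higher, and those of Kcnj9 and Kcnj6 lower, in every IP library than in any Input library, while the share of Kcnj3 overlapped (33.6 to 41.4% in Input, 37.6 to 58.7% in IP). These shares were computed after the values were seen and rest on exon lengths of the GENCODE annotation, which may not be the one used for counting.

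**Figure D3:**
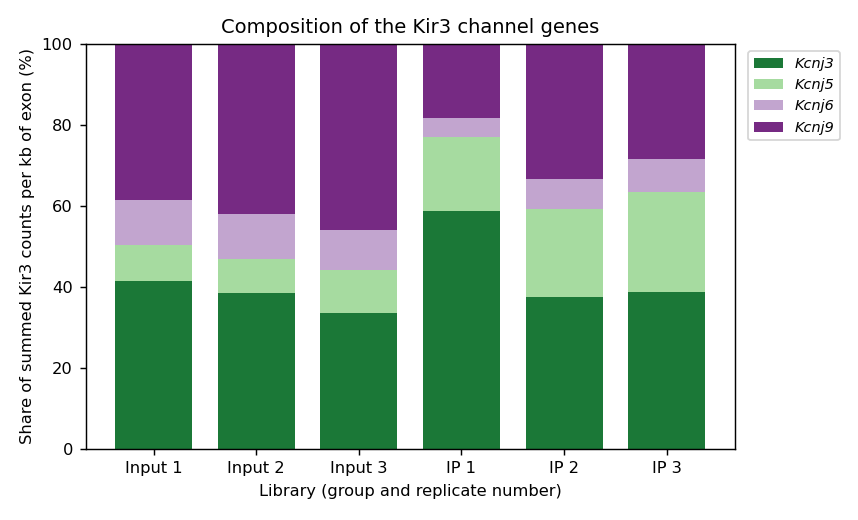
Share of each Kir3 gene in the summed Kir3 counts per kilobase of exon, as stacked bars in percent, for the 3 Input and 3 IP libraries. The Kcnj5 segment takes 18.4 to 24.7% in IP and 8.53 to 10.5% in Input, and IP replicate 1 differs from the other IP libraries by its large Kcnj3 segment (58.7%).

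Ratios within a library do not depend on how libraries are scaled. Per kilobase, Kcnj3 relative to Kcnj9 was 1.07, 0.915 and 0.731 in Input and 3.22, 1.12 and 1.37 in IP, and relative to Kcnj6 it was 3.74, 3.49 and 3.37 in Input and 12.3, 5.06 and 4.73 in IP. Both ratios were higher in every IP library (exact two-sided permutation p = 0.1 each, adjusted 0.12, with log2 differences of 0.93 and 0.91). Kcnj6 relative to Kcnj9 was 0.287, 0.263 and 0.217 in Input and 0.262, 0.222 and 0.290 in IP, and these overlapped (log2 difference 0.01, exact two-sided permutation p = 0.8, adjusted 0.8).

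Of 19 genes of the G-protein pathway that opens Kir3 channels, 11 rose and 2 fell, beside 23.3% and 24.3% of all genes tested. Their median log2 fold change was 0.53, again below the pan-neuronal 0.92, where 11 of 12 markers rose. The gamma subunit genes Gng3 (1.55, SE 0.11, adjusted p = 9.10e-06) and Gng2 (1.35, SE 0.08, adjusted p = 3.22e-06) led. Gng3 reached 2093 ± 331 CPM in IP from 717 ± 31.9 in Input. The beta subunit gene Gnb4 fell (-2.09, SE 0.36, adjusted p = 0.00146), and so did Kctd12, an auxiliary subunit of GABA-B receptors (-0.34, SE 0.10, adjusted p = 0.0209). Kctd12 lost that call in 6 of 16 alternative fits, each of which left out 1 or 2 libraries. The inhibitory alpha subunit gene Gnai1 was not called (306 ± 28.1 CPM in IP, 345 ± 22.003 in Input). Gnai1 was called lower under 5 alternatives, among them library totals (-0.41, adjusted p = 0.00456).

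Kcnj10, which encodes the astrocyte and oligodendrocyte channel Kir4.1, was the most abundant of the 10 genes in Input per kilobase of exon (37.6 ± 3.99 CPM per kb; SD, n = 3). In CPM it had 181, 204 and 224 in Input and 28.3, 32.7 and 22.8 in IP. The groups were far apart, and IP held 13.8% of the Input level (log2 fold change -2.86, SE 0.15, adjusted p = 1.72e-06). Kcnj16, which encodes Kir5.1, a subunit that is silent alone and joins Kir4.1, had 15.4, 20.2 and 19.997 CPM in Input and 1.16, 1.66 and 1.58 CPM in IP. These IP values rest on 58 to 76 counts. It fell 12.7-fold (log2 fold change -3.66, SE 0.25, adjusted p = 6.78e-06), to 7.90% of its Input level, the largest decrease among the members.

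Kcnj16 fell further than Kcnj10. Per kilobase the Kcnj16 to Kcnj10 ratio was 0.117, 0.136 and 0.122 in Input and 0.0563, 0.0697 and 0.0951 in IP, lower in each IP library (log2 difference -0.79, exact two-sided permutation p = 0.1, adjusted 0.12). The decrease of Kcnj10 lay within the range of the 12 astrocyte markers (-4.18 to -0.85), of which 7 fell further, and only 2 fell further than Kcnj16. Set against the geometric mean of those 12 markers in the same library, Kcnj10 differed by -0.02 on the log2 scale between IP and Input, with overlapping groups, and Kcnj16 by -0.82, without overlap (exact two-sided permutation p = 1 and 0.1, measures chosen after the values were seen). Over the astrocyte list the summed level was 2570 to 2637 CPM in Input and 869.8 to 945 CPM in IP, and over the 10 oligodendrocyte markers 3625 to 4184 and 319 to 399 CPM. None of the defining markers of either list was at 0 in all IP libraries. A lower level in IP is a lower share of the RNA pulled down, and shows neither fewer cells of a type nor less RNA per cell. The part of these cells in the result was not tested.

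Partners of Kir4.1 act in potassium, water and glutamate clearance. Of 12 listed genes 10 fell, 0 rose and 2 were not called, beside 24.3% lower and 23.3% higher over all genes tested, with a median log2 fold change of -2.41. Slc1a3, a glial glutamate transporter, fell furthest (-3.62, SE 0.39, adjusted p = 9.40e-05), then Mlc1, an astrocyte membrane protein (-3.41, SE 0.30, adjusted p = 3.04e-05). The least decreased of the called genes were Slc1a2, the other glial glutamate transporter (-0.85, SE 0.08), and Dtna, a dystrobrevin that anchors the channel complex (-0.41, SE 0.08). Dag1, dystroglycan, was not called (45.2 ± 1.35 CPM in IP, 43.0 ± 3.01 in Input). Aqp4, Slc1a2, Slc1a3, Gja1, Gjb6 and Glul are also on the astrocyte list, so the 2 lists are not independent.

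The remaining inward rectifier genes went both ways. Of 10, 6 passed the filter, 1 rose (Kcnj5) and 2 fell, beside 23.3% higher and 24.3% lower over all genes tested. With so few genes these counts do not stand apart from those shares. Kcnj2, a strong classical inward rectifier, fell from 9.43 ± 0.839 to 2.76 ± 0.840 CPM (log2 fold change -1.77, SE 0.30, adjusted p = 0.00126). It lies 38.2 kb from Kcnj16 on chromosome 11, with 0 protein-coding genes between them. Kcnj9 and Kcnj10 are closer still (11.9 kb apart, on opposite strands), and of that pair only Kcnj10 was called. Kcnj14 fell by the test (-3.28, adjusted p = 0.0444) (12, 55 and 15 Input counts against 0, 3 and 5), a call lost in 9 of 15 alternative fits, the one with the replicate number as a block among them (adjusted p = 0.111). Kcnj12, another strong rectifier, was not called, although its IP values were all above Input (38.3 ± 8.61 CPM against 28.2 ± 1.22, adjusted p = 0.0583). Kcnj12 was called higher with no filter (0.46, adjusted p = 0.0413), without IP replicate 3 (0.62, adjusted p = 0.00604) and without both libraries of replicate 3 (0.63, adjusted p = 0.0339). Kcnj4, Kcnj15, Kcnj13 and Kcnj1 did not pass the filter. Kcnj13, known from choroid plexus, was counted 5, 166 and 154 times in Input, against 0, 1 and 8 times in IP. Kcnj4 had at most 16 counts and Kcnj15 at most 5 in any library, and Kcnj1 had 0 in all.

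The sulfonylurea receptors, which join Kir6 pores to form ATP-sensitive channels, were low. Abcc9 fell (log2 fold change -3.43, SE 1.06, adjusted p = 0.0243) (64, 238 and 89 Input counts against 14, 24 and 0) and lost the call in 4 of 15 alternative fits. Abcc8, the neuronal receptor, varied from 2.26 to 10.04 CPM among IP libraries and from 5.74 to 6.91 CPM in Input and was not called (adjusted p = 0.971).

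Ordered by level per kilobase of exon, Input ran from Kcnj10 (37.6 ± 3.99 CPM per kb; SD, n = 3 here and below) through Kcnk1 (17.8 ± 0.545), Kcnj9 (14.0 ± 1.76), Kcnj3 (12.5 ± 1.19), Kcnk3 (5.77 ± 0.0798), Kcnj16 (4.70 ± 0.687), Kcnk2 (4.31 ± 0.466), Kcnj6 (3.53 ± 0.289) and Nalcn (3.14 ± 0.0431) to Kcnk10 (0.578 ± 0.0729). Kcnj9 and Kcnj3, and Kcnj16 and Kcnk2, had means within the sum of their SDs. In IP the order was Kcnk1 (23.4 ± 4.83), Kcnj3 (21.1 ± 5.87), Kcnk2 (12.96 ± 1.93), Kcnj9 (12.4 ± 3.37), Kcnk3 (11.2 ± 2.74), Kcnj10 (5.16 ± 0.915), Nalcn (4.69 ± 0.792), Kcnj6 (3.17 ± 0.833), Kcnj16 (0.372 ± 0.0677) and Kcnk10 (0.291 ± 0.139). The first 2, the next 3 and the last 2 of these likewise lay within the sum of their SDs. So did Kcnj3 and Kcnj9, Kcnj10 and Nalcn, and Nalcn and Kcnj6. By merged exons Kcnk2 moved from the seventh place to the third, and Kcnj10 from the first to the sixth. Places in the middle depend on the length used: per kilobase of the longest transcript, Nalcn stood sixth instead of ninth in Input, Kcnk2 moved from the eighth place to the third, and Kcnj10 from the first to the eighth.

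Spread between libraries was larger in IP. The coefficient of variation was higher in IP than in Input for all 10 genes, with medians of 22.6% and 10.1%. Over 10788 genes whose mean reached 5 CPM the same held for 82.4%, with medians of 15.5% and 6.95%. Nalcn and Kcnk3 had the tightest Input values among the members (1.37% and 1.38%), and Kcnk10 the widest IP values (48.0%).

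Set against the mean of pan-neuronal genes, only part of the members kept pace. Relative to the geometric mean of the 12 pan-neuronal markers in the same library, a measure chosen after the values were seen, Kcnk2 was higher in IP by 0.72 on the log2 scale, and Kcnj5 by 0.83. Each was higher in every IP library than in any Input library (exact two-sided permutation p = 0.1 each, the smallest possible). Kcnk3 differed by 0.06 and Kcnj3 by -0.14, with overlapping groups. Nalcn was lower by -0.30, Kcnk1 by -0.49, Kcnj6 by -1.06, Kcnj9 by -1.07 and Kcnk10 by -1.96, each without overlap (exact two-sided permutation p = 0.1 each). So a gene higher in IP by CPM, such as Nalcn, could be lower when set against the mean of these markers. The markers themselves had log2 fold changes from 0.21 to 1.36. Nalcn (0.58) lay within that range, above 3 of the 12, and so did Kcnk1 (0.40), above 1. Kcnj6, Kcnj9 and Kcnk10 lay below all 12. Other neurons moved in the comparison too: of 12 GABAergic and reticular markers 9 were lower (summed level 624 to 884 CPM in Input and 118 to 134 in IP), and of 8 habenula markers 7 were lower (190.0 to 308 CPM and 147 to 184). Their part in the values of the neuronal channel genes was not tested.

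**Figure D4:**
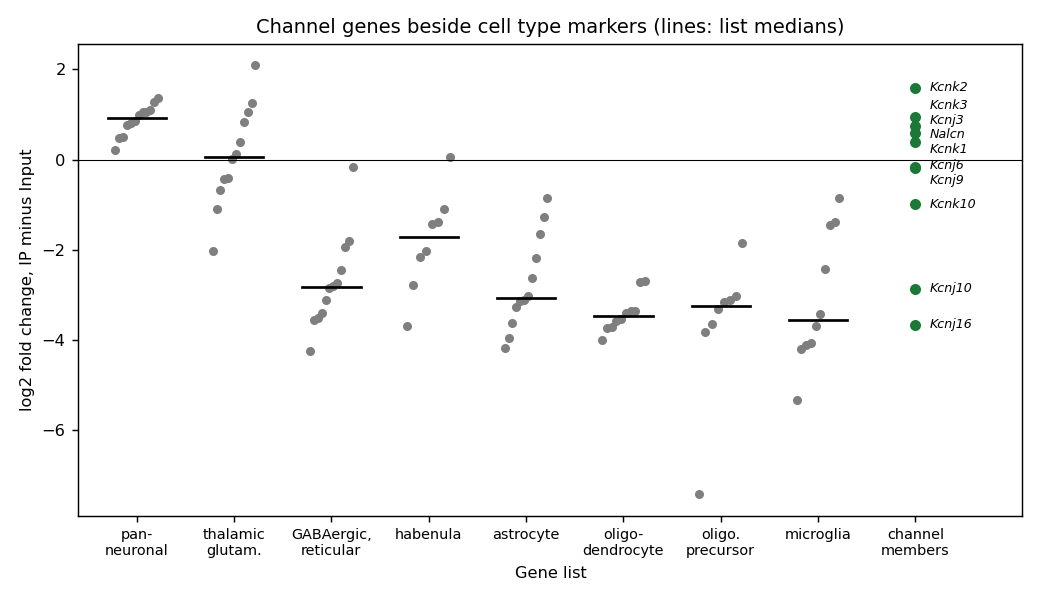
Log2 fold change (IP minus Input) of each tested gene in 8 marker lists (grey points, black line the list median) and of the 10 channel genes (green points, named). Kcnk2 (1.59) lies above all pan-neuronal points. Kcnj10 (-2.86) and Kcnj16 (-3.66) lie within the ranges of the astrocyte and oligodendrocyte points. They also lie within those of the oligodendrocyte precursor, microglia, GABAergic and habenula points.

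By the fixed rule, the genes whose levels followed Kcnk2 most closely over the 6 libraries were Fbxo22, Ndufaf2 and Snx4 (Pearson's r of log2 CPM 0.999, 0.997 and 0.997). They followed in pattern rather than in size, with log2 fold changes of 0.46, 0.99 and 0.75. For Kcnj16 they were A930013F10Rik, Grin2c and Firre (r of 0.999, 0.999 and 0.998), with log2 fold changes of -4.81, -2.71 and -3.01. Grin2c encodes an NMDA receptor subunit. The 6 libraries form 2 groups, and a difference between the groups enters each correlation. Of the candidates, 567 of 4281 passed 0.95 for Kcnk2 and 414 of 3784 for Kcnj16.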

How the data were processed

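RNA-seq of 6 libraries, 3 IP and 3 Input, was analysed. The deposited tables hold raw counts of reads for each gene symbol. STAR 2.0.0e, mm10 and HTSeq are named in the submitters' processing notes. The HTSeq version, strand setting and annotation are not given in the sources used here. The 5 closing summary lines and a line named unknown (no more than 1 count) did not enter library sizes. Reads not uniquely aligned made up 45.9% of all reads in the files, summary lines included, in IP and 33.3% in Input on average, which bears on genes with near-identical copies. Replicates differed beyond sampling noise in every pair (chi-square per degree of freedom 12.5 or more).

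Groups and replicate numbers came from sample titles. Genes were filtered with filterByExpr (minimum count 10), scaled by TMM and tested in R 4.3.3 with edgeR 4.0.16 (robust quasi-likelihood F-test, Benjamini-Hochberg adjustment, threshold 0.05). SE came from the F statistic. The test was checked on simulated counts that gave both groups the spread of the Input libraries. That check does not cover the larger spread in IP. Alternatives used DESeq2 1.42.0, limma 3.58.1, other scalings and filters, a block and left-out libraries. Levels between genes are per kilobase of merged exons (GENCODE M21, mm10). All 10 members were named. Of each pathway list, the 2 most raised and 2 most lowered called genes and the most abundant uncalled one were named. For patterns, 3 genes per member were taken among those with a mean of at least 5 CPM within 2-fold of the member's (log2 of CPM plus 0.5). Members and lists were chosen with earlier results of these data known.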

Additional observations from a re-analysis of the deposited data

How the results depend on the processing

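Over 16 alternative fits, Kcnk2, Kcnk3, Kcnj3, Kcnj10 and Kcnj16 kept direction and call. Of 160 values for the members 147 did so, 1 lost its call (Nalcn), 9 gained one (Kcnk1, Kcnk10) and 3 changed sign, all near 0 and uncalled: Kcnj6 was 0.046 without IP replicate 1 and 0.022 without replicate 1 of both groups, and Kcnj9 0.039 without IP replicate 1. Leaving out libraries gave -0.37 to 0.046 for Kcnj6, -0.34 to 0.039 for Kcnj9, -0.026 to 0.46 for Kcnk13 and -0.62 to 0.38 for Abcc8. Library totals called 2458 genes higher over all genes instead of 3930. Higher genes made up 48.9% of calls with TMM, 36.7% with upper-quartile scaling and 31.9% with library totals, with shifts of the all-gene median of -0.18 and -0.24. Among other named genes, signs changed with library totals for Kcnk13 (-0.025), Unc80 (-0.032), Plcb4 (-0.11) and Dag1 (-0.17), with upper-quartile scaling for Plcb4 (-0.046) and Dag1 (-0.11), with the stricter filter for Dag1 (-0.036), with no filter for Abcc8 (0.00057), without Input replicate 2 for Kcnk13 (-0.026), and for Abcc8 in 5 fits that left out libraries (0.0025 to 0.38). The Kcnj6 to Kcnj9 ratio difference was -0.19 without replicate 3 and ran to 0.14 without replicate 2. With the replicate number, which is also the sequencing lane, as a replicate block, 3793 genes were higher and 4038 lower, and the same 4 members were higher and 2 lower. The block ended the calls of Unc80 (0.20, adjusted p = 0.0604) and Kcnj14 (-3.52, adjusted p = 0.111) and changed no other call among the named genes. Same-numbered deviations correlated at 0.16, 0.05 and 0.04 for numbers 1 to 3, and IP replicates 2 and 3 each correlated better with another number. Single genes followed the number: Xist was at 0 in both libraries of replicate 3 alone, and Ttr was lowest in both of replicate 1. Low counts limit the precision of Kcnk10 (66 to 286 counts a library), Kcnj16 in IP (58 to 76), Kcnj14 and Abcc9.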
